A study of Mus musculus with 2 samples.

Results

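The genes described here are Mir486, which lies inside the ankyrin gene Ank1, its opposite-strand gene Mir3107, and the red cell cluster of Mir451a, Mir451b and Mir144. They were picked by their GENCODE M21 symbols, by a rule that uses no measured value, and are 5 of the 2202 microRNA (miRNA) genes in the deposited tables. Gastrocnemius, the large calf muscle, was taken from adult female mice of the hybrid strain B6CASTF1/J aged 18 to 20 months, and its RNAs under 30 bases were sequenced as 2 libraries of 1 untreated group. The labels number them biological replicates 2 and 1 and give them separate tissue entries but the same donor entry, so differences between them may be technical. The comparison of interest is how far Mir486, a miRNA of muscle, exceeded Mir451a, a miRNA carried by blood.

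A miRNA is cut from a hairpin in its primary transcript, and 1 arm of the hairpin then guides an Argonaute protein to messenger RNAs that match its seed (bases 2 to 8). Mir486 is made in striated muscle, where it is known to repress Foxo1, a transcription factor of muscle atrophy, and it is also made in the red cell lineage. Ank1 encodes ankyrin 1, which ties the spectrin skeleton to the membrane in red cells, while short muscle forms of the protein sit in the sarcoplasmic reticulum. Mir144 and Mir451a are made from a common primary transcript switched on by GATA1 in red cell precursors. Mature red cells have no nucleus but keep much of their Mir451a, so its reads in a tissue are widely used as a sign of blood.

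RefSeq sequences (build GRCm38.p6) matched 3 of the 5 genes, Mir451a, Mir451b and Mir144, and their hairpins were identical to the GENCODE transcripts. Mir486 and Mir3107 are named only. The mature miRNAs of the red cell cluster are shown because the seed and the place in the hairpin tell its members apart. Capitals mark the seed.
mmu-miR-451a: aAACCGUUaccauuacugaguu
mmu-miR-451b: uGGGAGCAgcaagagaaccgu
mmu-miR-144-5p: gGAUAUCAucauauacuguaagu
mmu-miR-144-3p: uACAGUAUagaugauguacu
All 4 seeds differed, and none was shared with another of the 1738 RefSeq mature miRNAs of mouse in the table. With bases 2 to 7 alone, mmu-miR-144-3p matched 1 other, mmu-miR-101a-3p. Mature mmu-miR-451a lies at chr11:78073186-78073207 on the plus strand and mmu-miR-451b at chr11:78073219-78073239 on the minus strand, with 11 bases between their places.

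The hairpins show how the mature parts sit, with the mature miRNA in capitals. They lie on chromosome 11 of mm10, at chr11:78073170-78073241 for Mir451a (plus strand) and Mir451b (minus strand) and at chr11:78073005-78073070 for Mir144 (plus strand).
Mir451a: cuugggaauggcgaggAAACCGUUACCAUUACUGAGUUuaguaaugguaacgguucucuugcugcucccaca
Mir451b: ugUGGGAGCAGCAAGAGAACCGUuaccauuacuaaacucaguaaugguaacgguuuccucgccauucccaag
Mir144: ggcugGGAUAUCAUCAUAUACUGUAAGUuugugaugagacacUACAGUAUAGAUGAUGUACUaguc
Mir451b is the exact reverse complement of Mir451a. In the predicted fold of Mir451a, the mature miRNA took bases 17 to 38 and ran through all 4 bases of the terminal loop, with 17 bases paired on the 5′ side. In Mir144 both mature miRNAs kept to the stem, with 0 bases in the 6-base loop. As background, Mir451a is cut by the Argonaute protein Ago2 rather than by Dicer, while Mir144 is cut by Dicer.

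Mir486 (ENSMUSG00000070084.3, chr8:23142555-23142682, plus strand) lies in the last intron of Ank1, which runs from 23141721 to 23148280. The hairpin starts 834 bases after one exon and ends 5598 bases before the next, and no annotated exon of another kind of gene overlaps it. Mir3107 (ENSMUSG00000106471.1, chr8:23142573-23142662, minus strand) lies wholly within the Mir486 hairpin on the other strand, inside the antisense RNA gene Gm15816. Mir144 (ENSMUSG00000065401.1) ends 99 bases before Mir451a (ENSMUSG00000070065.1), which lies on the same strand and shares its place with Mir451b (ENSMUSG00000104813.1). No gene other than miRNA genes is annotated over the Mir144 and Mir451 hairpins.

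**Figure D1:**
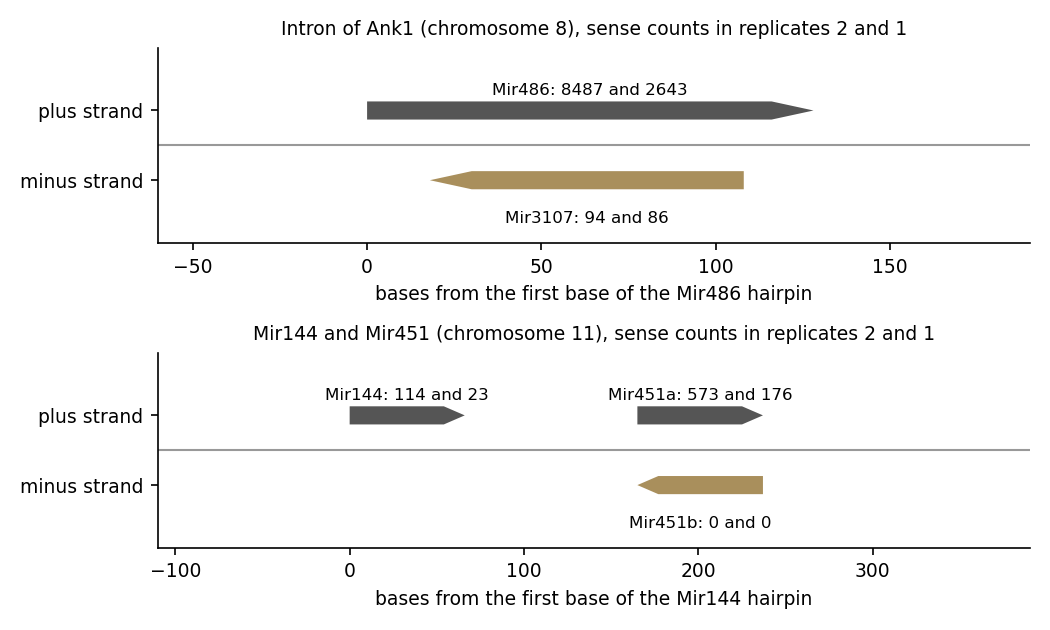
Hairpins as annotated, drawn to scale in bases from the first base of Mir486 (top) or of Mir144 (bottom), with plus-strand genes above the line and minus-strand genes below it. The numbers are sense counts in replicates 2 and 1, and the minus-strand genes Mir3107 (94 and 86) and Mir451b (0 and 0) held few or no reads.

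The libraries held 2177048 counts on miRNA genes in replicate 2 and 865419 in replicate 1, out of 12001270 and 6888732 reads. Multimapping reads, which match several places and enter no gene count, made up 71.0% and 80.7% of these reads. Levels are given as counts per 1000000 gene counts (CPM) of the sense column, means with their SD over both libraries (n = 2), and intervals are exact 95% intervals for counting error only. Striated muscle miRNAs were present, led by Mir206, a miRNA of skeletal muscle, which reached 103232 CPM (replicate 2) and 40389 CPM (replicate 1).

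Mir486 was the most abundant of the 5 genes in both libraries. It had 8487 sense counts in replicate 2 and 2643 in replicate 1, which came to 3898 CPM (3816 to 3982) and 3054 CPM (2939 to 3173). Its mean of 3476 ± 597 CPM was 0.348% of all gene counts and placed it at rank 36 of the 606 genes counted in either library. It stood at rank 32 in replicate 2 and 39 in replicate 1. By mean level its neighbours were Mir98 (3698 ± 259 CPM) and Mir10a (3638 ± 899 CPM) above it, and Mir140 (3186 ± 2593 CPM) and Mir361 (3061 ± 1210 CPM) below it. Each of these 4 differed from Mir486 by less than its SD, so the order among them is not resolved.

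Mir451a, the marker of red cells, was far lower. It had 573 counts in replicate 2 and 176 in replicate 1, or 263 CPM (242 to 286) and 203 CPM (174 to 236), with a mean of 233 ± 42.3 CPM at rank 108. Mir184 (242 ± 73.1 CPM) and Mir671 (243 and 229 CPM in replicates 2 and 1) stood next above it, and Mir181a-2 (229.7 ± 89.6 CPM) and Mir487b (229 ± 84.7 CPM) next below. These gaps were also within the SD. In bulk tissue, fewer cells of a type and less RNA per cell cannot be told apart, so this level is no count of red cells.

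Mir144, from the same primary transcript as Mir451a, had the lowest mean of the genes with reads, although Mir3107 was lower in replicate 2. It had 114 counts in replicate 2 and 23 in replicate 1, or 52.4 CPM (43.2 to 62.9) and 26.6 CPM (16.8 to 39.9), with a mean of 39.5 ± 18.2 CPM at rank 192. Its intervals in the 2 libraries did not overlap. Mir375 (40.3 ± 4.71 CPM) and Mir326 (39.9 ± 15.6 CPM) stood just above it and Mir34c (38.8 ± 5.55 CPM) and Mir431 (38.7 ± 2.44 CPM) just below.

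Mir3107 had 94 counts in replicate 2 and 86 in replicate 1, or 43.2 CPM (34.9 to 52.8) and 99.4 CPM (79.5 to 123), with a mean of 71.3 ± 39.7 CPM at rank 163. Nearly equal counts therefore gave unequal CPM, since replicate 2 held 2.52 times as many gene counts. Mir7-1 (71.8 ± 1.46 CPM) and Snord43 (71.4 ± 64.0 CPM) stood above it and Mir500 (70.0 ± 54.9 CPM) and Mir224 (68.0 ± 1.93 CPM) below. Mir451b had 0 counts in either library, which allows up to 1.38 CPM in replicate 2 and 3.47 CPM in replicate 1.

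**Figure D2:**
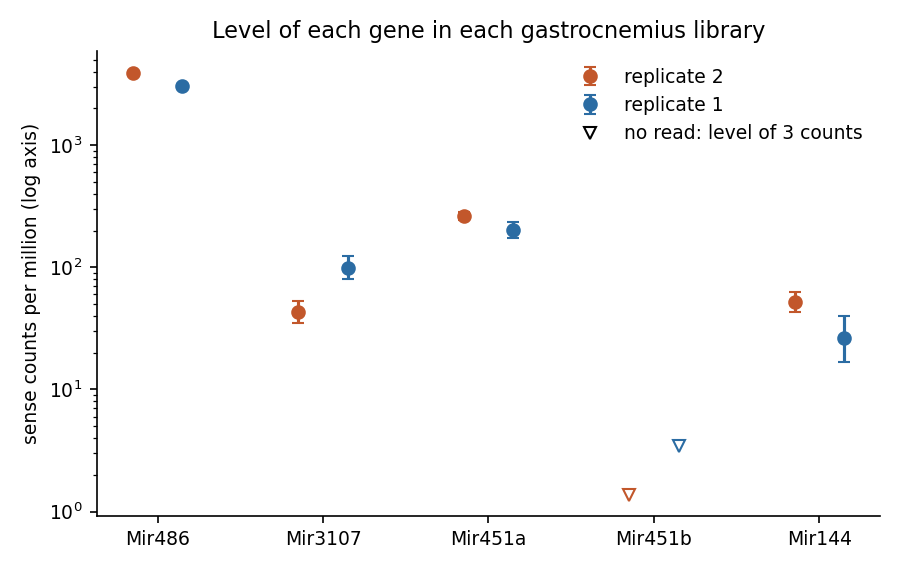
Sense counts in CPM (log axis) of the 5 genes, with 1 point per library and bars for the exact 95% Poisson interval. Open triangles mark the level of 3 counts for Mir451b, which had no read. Mir486 sits at 3898 and 3054 CPM and Mir451a at 263 and 203 CPM.

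Mir486 exceeded Mir451a by nearly the same factor in both libraries. The ratio of their sense counts was 14.8 in replicate 2 (13.6 to 16.1) and 15.0 in replicate 1 (12.9 to 17.6), with a mean of 14.9 ± 0.145, or 3.90 ± 0.01 on the log2 scale. Put the other way, Mir451a made up 6.32% of their joint counts in replicate 2, with a Clopper-Pearson interval of 5.83% to 6.85%, and 6.24% in replicate 1, with 5.38% to 7.20%. Between the libraries the ratio changed by a factor of 0.986, replicate 2 over replicate 1 (0.824 to 1.18), and the two-sided Fisher exact test adjusted over 6 gene pairs gave p = 0.894. The interval bounds how far the libraries could differ by counting error and does not show that the ratios were equal.

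The size of the excess depends on what is counted. Each read covers about 1 mature miRNA, so counts per gene do not grow with hairpin length as they do for long RNAs. The annotated Mir486 hairpin is nonetheless 128 bases long against 72 for Mir451a. Per base of hairpin, the level of Mir486 was 30.5 CPM (replicate 2) and 23.9 CPM (replicate 1), against 3.66 and 2.82 CPM for Mir451a, a ratio of 8.39 ± 0.0817. With Mir144 added to Mir451a, Mir486 exceeded the red cell pair by 12.8 ± 0.656 to 1. Mir486 is also made by red cells, and how many of its reads came from blood was not tested.

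Mir486 reads can be lost to multimapping, while those of Mir451a and Mir144 share no such stretch among the annotated hairpins. The Mir486 hairpin holds 22 bases that recur on the other strand of the same place, in Mir3107. Of its 107 stretches of 22 bases, 2 had a second match, and of its 109 stretches of 20 bases, 6 had one. No stretch of 23 bases did. These counts weigh all stretches alike, while reads cover mostly the mature miRNA, whose place in the Mir486 hairpin was not available here. The share of reads concerned can thus be far larger than the share of stretches. Every second match of 18 bases lay within the Mir486 hairpin's own span, so no other annotated hairpin was involved. The longest stretch of Mir451a that recurred anywhere among the hairpins was 16 bases, and Mir144 had none of 16 or more. Of the 305 genes tested below, 60 (19.7%) share a stretch of 22 bases or more with another place, against 1047 (47.5%) of all 2202 genes. The minimum count for the test can leave out genes that lose reads this way. The count of Mir486 and its ratio to Mir451a can therefore be lower bounds, and the number of reads concerned is not known from the tables. The CPM, share and rank of Mir486 need not be, since the gene totals and other genes lose multimapping reads too.

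The other pairs of these genes were less even between the libraries. Mir486 held 74.4 counts for each of Mir144 in replicate 2 (61.9 to 90.4) and 115 in replicate 1 (76.4 to 182), a change by a factor of 0.648 (0.394 to 1.02, adjusted p = 0.102 by the same Fisher exact test). Its neighbour Mir451a held 5.03 counts for each of Mir144 in replicate 2 (4.10 to 6.20) and 7.65 in replicate 1 (4.94 to 12.4). That change, by a factor of 0.657, had an interval of 0.388 to 1.07 and an adjusted p of 0.114 by the exact test. Neither change passed the threshold of 0.05. With 23 counts of Mir144 in replicate 1, the intervals are wide.

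The ratios to Mir3107 did differ. Mir486 held 90.3 counts for each of Mir3107 in replicate 2 (73.7 to 112) but 30.7 in replicate 1 (24.8 to 38.6), intervals that lie far apart. The ratio was 2.94 times as high in replicate 2 (2.16 to 3.99, adjusted p = 2.20e-11 by the Fisher exact test over 6 pairs). Mir451a over Mir3107 changed by a similar factor, 2.98 (2.09 to 4.23, adjusted p = 1.12e-09 by the exact test). This test compares 2 libraries and their counting error only.

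**Figure D3:**
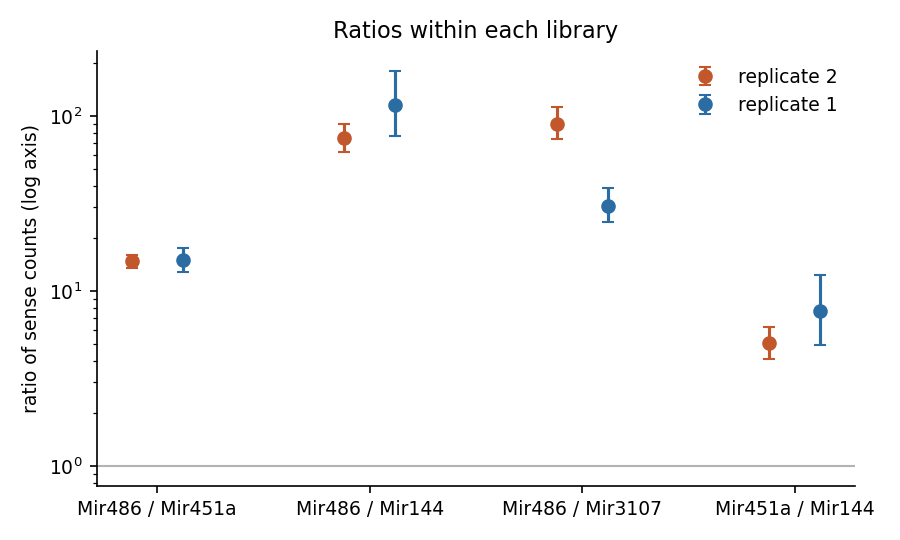
Ratios of sense counts within each library (log axis), with exact 95% intervals for counting error. The points for Mir486 over Mir451a lie at 14.8 and 15.0, while those for Mir486 over Mir3107 lie at 90.3 and 30.7.

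Set against all genes, Mir3107 was the only one of the 4 tested genes called between the libraries. Genes entered the test from a mean count of 10 and were called at a Benjamini-Hochberg adjusted p under 0.05 over 305 genes by the exact conditional binomial test and a ratio of at least 2. Of the 305 genes, 33.8% passed, 26.9% with the higher level in replicate 2 and 6.89% with it in replicate 1, so 1 call among 4 genes is near the background. Mir3107 was 2.30-fold higher in replicate 1 (1.70 to 3.12), a log2 ratio of -1.20 for replicate 2 over replicate 1 (adjusted p = 1.27e-07 by the exact test). Only 17 of the 305 genes had a lower log2 ratio. It was called with each of the alternatives that tested it, although dropping the ratio threshold could not have undone the call.

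Mir486, Mir451a and Mir144 were not called. The ratio of replicate 2 over replicate 1 was 1.28 for Mir486 (1.22 to 1.33) and 1.29 for Mir451a (1.09 to 1.54). Both log2 ratios, 0.35 and 0.37, lay just below the median of 0.43 over all tested genes, at -0.08 and -0.06 relative to it. They turned to -0.07 and -0.05 with DESeq2 size factors, which shift every gene by -0.42, so they give no direction between the libraries. Mir144 had a ratio of 1.97 (1.25 to 3.23, adjusted p = 0.00399 by the exact test), just short of 2-fold, and lay 0.54 above the median on the log2 scale.

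Mir486 and Mir451a lay 0.02 apart in log2 ratio. Of the 304 other tested genes, 8 lay as near to Mir451a, with Mir486 among them, a share of 2.63%, while 142 lay as near as Mir144 or nearer. These figures are a description, since 2 libraries hold 1 difference per gene and cannot show a shared pattern.

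**Figure D4:**
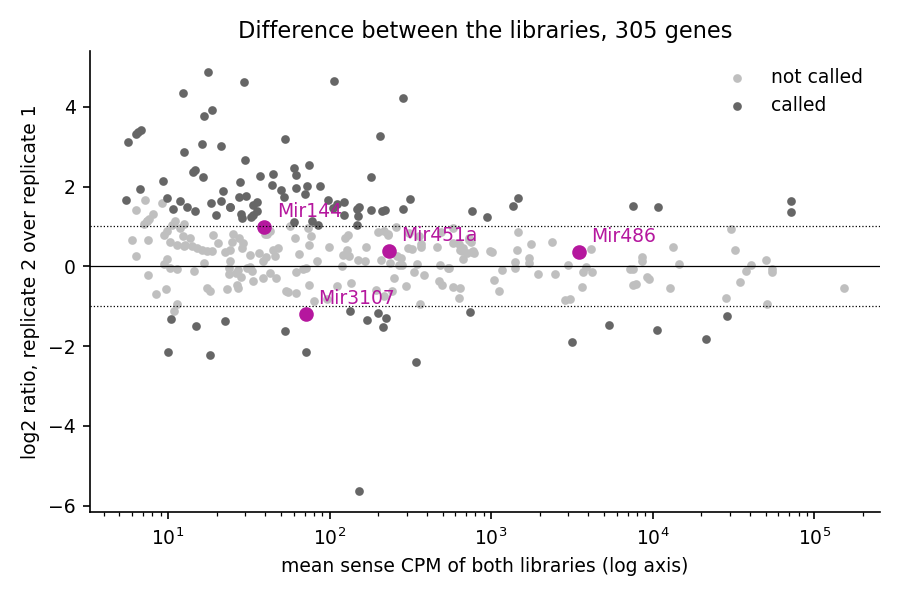
Log2 ratio of replicate 2 over replicate 1 against mean CPM (log axis) for the 305 tested genes, dark where called and pale where not, with the 4 tested genes of these loci named. Dotted lines mark a ratio of 2 in either direction. Mir486 and Mir451a sit near the middle of the genes, at 0.35 and 0.37, and Mir3107 lies at -1.20.

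The strand columns show how these genes are read. Each file gives an unstranded, a sense and an antisense count, and the unstranded column drops reads over genes on both strands as ambiguous. Mir486, Mir3107 and Mir451a had 0 unstranded counts in both libraries, although Mir486 had 8487 and 2643 sense counts. Mir144, with no gene on the other strand, had the same 114 and 23 counts in the unstranded and sense columns and 0 in the antisense column. The antisense column of Mir486 held 94 and 86 reads, exactly the sense counts of Mir3107. No uniquely mapped minus-strand read was thus counted for Mir486 alone, although its hairpin reaches 18 bases further on one side and 20 on the other.

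Minus-strand reads at the Mir486 place were unusual among opposite-strand pairs. Of 32 such pairs of miRNA genes in the tables, 23 reached a mean count of 10, and 8 of these had any read on the lesser strand. Mir3107 made up 1.10% of the counted reads of its pair in replicate 2 (0.886 to 1.34) and 3.15% in replicate 1 (2.53 to 3.88). Reads within the 22 bases shared by Mir486 and Mir3107 match both strands and enter neither count, so these shares leave them out. The 94 and 86 counts of Mir3107 were the highest for any lesser strand, followed by Mir3074-1 opposite Mir24-1 with 9 and 2. By share, 2 of the 23 stood above Mir3107 in both libraries, Mir3074-1 at 6.98% and 7.14%, and Mir219b opposite Mir219a-2 at 1.30% and 33.3%, with 1 read in each library. Mir451b, by contrast, had 0 reads against 573 and 176 for Mir451a, where the floor of 3 counts is 0.524% and 1.70% of the Mir451a count. Mir30f opposite Mir30e and Mir126b opposite Mir126a had 1 and 0 reads in replicate 2 and none in replicate 1, beside far more reads on the major strand than Mir486 had.

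**Figure D5:**
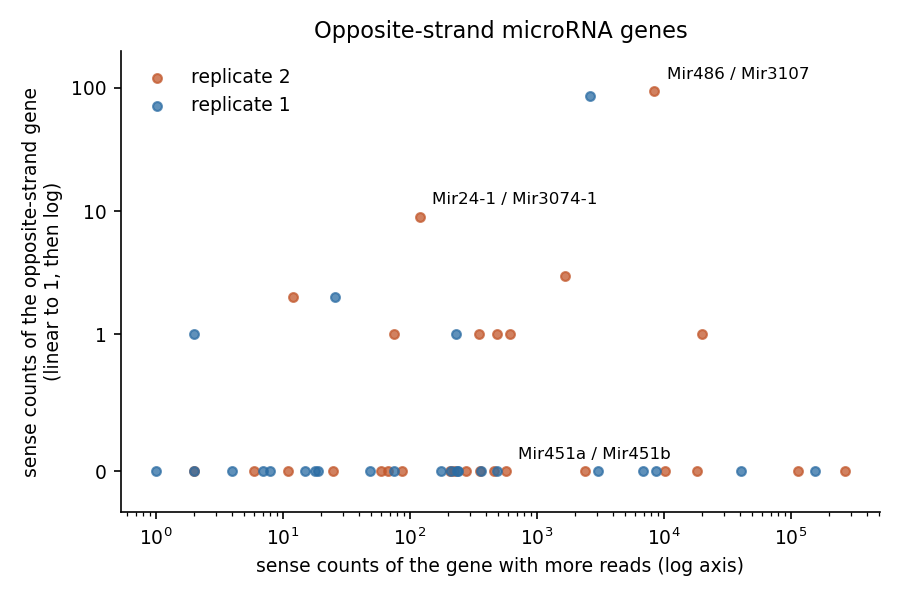
Each point is a pair of miRNA genes on opposite strands of the same place in 1 library, with the sense counts of the gene with more reads on the x axis (log) and of its partner on the y axis (linear to 1, then log). The points for Mir486 and Mir3107 stand highest, at 94 and 86, and those of Mir451a and Mir451b lie at 0.

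Among striated muscle miRNAs, Mir486 as counted was second to Mir206, which held 26.5 times its counts in replicate 2 and 13.2 times in replicate 1. All 11 listed genes, Mir486 among them, had counts in both libraries and 9 were tested, of which 4 passed with the higher level in replicate 2, 0 passed the other way and 5 did not pass, beside 26.9% and 6.89% of all tested genes. Their median log2 ratio was 0.59, against 0.43 over all tested genes. The 4 were Mir206, Mir208a, Mir208b and Mir499, the last of which (416 and 153 CPM) lies in the myosin gene Myh7b. Against Mir208b, a slow fibre miRNA, Mir486 held 7.21 times the counts in replicate 2 and 106 times in replicate 1. Mir208b had 1177 counts in replicate 2 but 25 in replicate 1 (log2 ratio 4.23), so the ratio in replicate 1 rests on few reads. Mir1a-2 had 162 CPM (replicate 2) and 270.4 CPM (replicate 1), but the copies of Mir1a and Mir133a share their mature sequences and are undercounted.

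Blood carries other miRNAs, and their levels beside Mir451a were mixed. Of 14 miRNA genes listed as abundant in red cells besides the genes above, 13 matched a symbol and 12 were tested. The name without a match was Mir92a-1. A gene with the symbol Mir92-1 (1399 CPM, log2 ratio 0.11) was tested and not called, but is left out of these figures. Of the 12, Mir106b and Mir210 were higher in replicate 2 and Mir16-2 was higher in replicate 1, while 9 did not pass. Over all tested genes, 33.8% were called. The median log2 ratio of the 12 was 0.17, against 0.43 over all tested genes. Several are made in many tissues, among them Mir191 (9208 ± 1203 CPM), and they are no measure of blood. Of 5 leukocyte genes, Mir142 and Mir223 passed with the higher level in replicate 1, and the other 3 did not pass, beside 6.89% of all tested genes called in that direction. Mir223, a miRNA of neutrophils and platelets, had 123 CPM (replicate 2) and 278 CPM (replicate 1), so it reached 0.466 of the Mir451a count in replicate 2 and 1.37 times that count in replicate 1. No test compared the difference of Mir223 with those of Mir451a and Mir144, and the part that blood left in the tissue had in any of these values was not tested.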

How the data were processed

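Small RNA sequencing counts of 2 gastrocnemius libraries were analysed. The deposited values are raw counts of reads per miRNA gene on mm10 with GENCODE M21, per the README files. No source used here names the aligner, the counting tool or any trimming. Each file holds 4 tallies, left out of totals and tests, and 3 count columns without header, which from their values are unstranded, sense and antisense. Computed here were CPM from sense totals, exact Poisson and conditional binomial intervals (95%), Fisher's exact test for ratios of 6 gene pairs, and the exact binomial test over 305 genes (replicate 2 over replicate 1; a count of 0 enters as 3). With 1 group, edgeR's quasi-likelihood test had no contrast to test. All intervals and floors cover counting error only. Hairpins were searched for stretches of 16 or more bases shared between places, and folded with RNAfold 2.7.2. The binomial test and the intervals were checked on simulated counts. Alternatives were TMM (edgeR 4.0.16), DESeq2 1.42.0 size factors, other totals, filters, columns and single libraries. Python 3.11.15, SciPy 1.17.1 and R 4.3.3 were used. The genes, lists and naming rule (the 5 genes, 2 neighbours by mean CPM on each side, list members) were chosen with earlier results of these data known. Other genes named for their counts were chosen after their values were seen.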

Additional observations from a re-analysis of the deposited data

How the results depend on the processing

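The mean ratio of Mir486 to Mir451a was 15.2 with Mir3107 added to Mir486 and Mir451b to Mir451a, 12.8 over Mir451a plus Mir144, 8.39 per base of hairpin, and 14.8 to 15.0 with either library left out. The antisense column of Mir486 holds the reads of Mir3107, and Mir451a had no read in that column. Its value of at least 30.0, against a floor of 3 counts per library, is therefore no ratio of Mir486 to Mir451a. In the unstranded column the ratio could not be computed. The levels of Mir486, Mir3107 and Mir451a were 0 in that column, where reads over both strands are ambiguous. Per 1000000 reads of any kind, multimapping included, Mir486 stood at 545, Mir3107 at 10.2, Mir451a at 36.6 and Mir144 at 6.42, and without the most abundant gene in the totals Mir486 stood at 4090 CPM. With either library left out, the levels ranged from 3054 to 3898 CPM for Mir486, 43.2 to 99.4 for Mir3107, 203 to 263 for Mir451a and 26.6 to 52.4 for Mir144. The 103 called genes became 50 with a mean of at least 100 counts, which leaves fewer genes to test, and 207 without a threshold on the ratio. Without that threshold Mir486 (log2 ratio 0.35), Mir451a (0.37) and Mir144 (0.98) were called too with library totals. With TMM their adjusted p by the exact binomial test was 0.0496, 0.564 and 0.0569, and with DESeq2 size factors it was 0.0667, 0.796 and 0.149. DESeq2 size factors turned Mir486 to -0.07 and Mir451a to -0.05. For the other 52 of 71 values, direction and side of the threshold were kept, or the move was less than the SD. Among them, numbers of called genes (92 to 105) stayed within 1.5 times the main number. With 2 libraries, leaving 1 out always moves a mean by less than the SD. For levels and ratios, those alternatives could therefore not have come out otherwise. Nor could dropping the ratio threshold undo the call of Mir3107. The level of Mir451b was 0 with all 7 alternatives, and no scaling could move it. Other filters on counts change the adjusted p of a gene but not its log2 ratio. The depth of replicate 1, with 23 counts of Mir144, limits the ratios that involve it. No paired analysis was possible because both libraries belong to 1 group.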
